A study of Mus musculus with 10 samples.

Results

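The glycolysis, lactate and glucose use genes are 43 genes chosen by symbol, all of which had a row among the 25232 genes of the deposited table. They cover glucose uptake, glycolysis, pyruvate and lactate handling, glycogen and the pentose phosphate pathway. RNA was sequenced from the spinal cord of 10 female mice of 90 days of the strain C57BL/6 (C57BL/6J in the methods), 5 wild type (WT) and 5 SOD1 G93A, and the methods name the lumbar region. The SOD1 G93A mouse carries many copies of a human SOD1 transgene with a mutation of familial amyotrophic lateral sclerosis (ALS), and the WT mice were littermates without it. The value used for each gene is the base mean, which is the authors' mean over all 10 libraries, both genotypes together, of read counts divided by the size factors of DESeq2. The 2 genotypes were therefore not compared here, and neither a spread between mice nor the depth of a library accompanies the levels. The base means of all genes summed to 22158933.

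Glycolysis splits glucose into pyruvate in the cytosol, and many of its steps are run by small families of isozymes whose use differs between tissues. Pyruvate is oxidised in mitochondria or reduced to lactate, which monocarboxylate transporters carry across membranes. In the nervous system lactate made by glial cells is widely regarded as a fuel for axons. The same enzymes are made by neurons and glia, and in RNA of a whole tissue fewer cells of a type and less RNA per cell cannot be told apart.

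The tissue carried the markers of its label. The oligodendrocyte gene Mbp had a base mean of 319615, and Snap25 of neurons and Gfap of astrocytes had 59050 and 56290 (normalised counts). Chat of motor neurons had a base mean of 735 and the posterior Hox gene Hoxc10 one of 489, against 0.993 for Emx1 of the forebrain. Of tissues next to the cord, Prx of Schwann cells had a base mean of 484 and the 4 skeletal muscle genes lay between 77.5 and 251. The haemoglobin genes Hbb-bs and Hba-a1, each with a near-identical neighbour, were listed at 0, and Alas2 of red blood cells had a base mean of 137. The 3 dorsal root ganglion genes lay between 8.80 and 86.9, and Alb of liver had 46.8. The part of these cells in the levels below was not tested.

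Levels of different genes were compared per kilobase of merged exons. On that scale the 43 genes spanned 1147-fold, from 11.3 for Slc16a3 to 12996 for Aldoc. The median of the 43 lay at percentile 90.5 of the 15624 genes ranked (those with a base mean of at least 10 and a known length), 23 of the 43 were among the top 10% and 6 were below the median. Together they held 1.34% of all normalised counts. As many as 45.5% of the counts of the 43 genes came from 4 of them, Aldoc, Pkm, Aldoa and Eno2. Oxidative phosphorylation, the mitochondrial pathway that takes over from pyruvate, was represented by 87 symbols that match name patterns of its nuclear-encoded subunits. Subunits encoded by the mitochondrial genome were not in this list, so its values do not cover the whole pathway. Of the 87 symbols, 83 had a known length and 79 were ranked, with a median at percentile 96.3. The 87 held 1.13% of all normalised counts. They include pseudogene symbols such as Ndufs5-ps, which had a base mean of 1405 and was not ranked. No error stands behind any order of levels, so neighbours in an order cannot be said to differ.

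**Figure D1:**
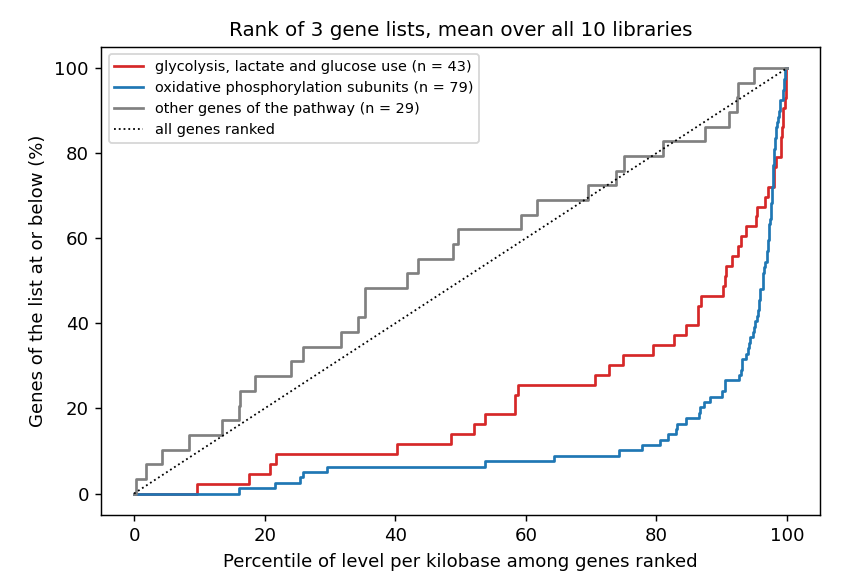
Cumulative share of the genes of a list (vertical axis, %) against the percentile of their level per kilobase of merged exons among 15624 genes ranked (horizontal axis). The curve of the 43 genes lies to the right of the dotted line of all genes, with a median at percentile 90.5. That of the nuclear-encoded oxidative phosphorylation subunits has a median at 96.3. These curves cross at the top, where the top 1% of genes ranked holds 9 of the 43 genes and 6 of the 79 subunits.

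Many of these enzymes have near-identical copies in the genome, and only uniquely mapped reads entered the counts. The transcript with the longest coding sequence of each gene was therefore cut into all windows of 100 bases, the length of a read, and each window was searched for in the transcripts of all genes elsewhere in the GENCODE annotation of GRCm38. An identical window was found for 12 of the 43 genes, and 27 had no window within 2 mismatches of another gene. Gapdh had the largest share, with an identical copy of 85.8% of its 1174 windows and with 86 other genes, 82 of them annotated as pseudogenes, that held at least 1 such window. Next were Pgk1 with 67.0% of its windows, Eno1 with 59.0% and Pgam1 with 39.7%. The shares of the other 8 genes with a copy were at most 18.8%, the value of Mpc1, a subunit of the mitochondrial pyruvate carrier. With up to 2 mismatches allowed, the share was 86.3% for Gapdh and rose to 85.0% for Eno1, 50.8% for Ldhb, 50.4% for Pkm, 46.5% for Pdhb, 40.6% for Gpi1 and 28.6% for Ldha.

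The most shared window of Gapdh within 1 coding exon is shown first, written in the direction of the gene. It lies in coding exon 4 of 7 of ENSMUST00000117757.8 (minus strand, chr6:125162901-125163000, GRCm38) and recurred without a difference in 38 other genes.
Gapdh: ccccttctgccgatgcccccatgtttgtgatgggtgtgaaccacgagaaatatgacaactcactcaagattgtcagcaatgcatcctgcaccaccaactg

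Of the 43 genes, 0 shared a window within 2 mismatches with another of the 43, so the isozymes of a step were distinct over the length of a read. For 3 pairs a coding window of 1 gene is shown above the closest ungapped window of its partner, with capitals at the bases that differ. The aldolase windows, Aldoc at chr11:78325105-78325204 (plus strand) and Aldoa at chr7:126796600-126796699 (minus strand), differed at 18 of 100 bases, and neither was found in another gene.
Aldoc: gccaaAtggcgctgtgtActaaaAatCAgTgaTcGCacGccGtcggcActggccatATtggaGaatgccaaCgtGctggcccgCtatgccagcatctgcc
Aldoa: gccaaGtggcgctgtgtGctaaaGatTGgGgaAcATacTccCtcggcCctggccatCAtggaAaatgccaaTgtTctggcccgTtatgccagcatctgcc

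The enolase windows, Eno1 at chr4:150245115-150245214 (plus strand) and Eno2 at chr6:124766228-124766327 (minus strand), differed at 16 bases. That of Eno1 had identical copies in 3 other genes and that of Eno2 in 0.
Eno1: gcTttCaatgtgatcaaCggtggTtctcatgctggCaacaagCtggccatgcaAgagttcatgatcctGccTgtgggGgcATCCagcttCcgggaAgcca
Eno2: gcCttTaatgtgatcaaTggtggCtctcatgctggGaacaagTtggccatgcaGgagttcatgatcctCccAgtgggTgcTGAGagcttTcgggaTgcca

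The lactate dehydrogenase windows, Ldhb at chr6:142495607-142495706 (minus strand) and Ldha at chr7:46850920-46851019 (plus strand), differed at 26 bases. That of Ldhb had an identical copy in 1 other gene and that of Ldha in 0.
Ldhb: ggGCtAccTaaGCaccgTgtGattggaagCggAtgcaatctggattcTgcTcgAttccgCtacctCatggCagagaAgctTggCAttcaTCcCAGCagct
Ldha: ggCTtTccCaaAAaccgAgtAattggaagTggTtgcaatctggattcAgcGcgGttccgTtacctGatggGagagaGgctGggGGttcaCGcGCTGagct

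Uptake of sugar was represented by 2 transporters. Slc2a3, the high-affinity glucose transporter of neurons (chromosome 6 of GRCm38, 122727809 to 122801640), had a base mean of 2094 and a level of 289 normalised counts per kilobase. Slc2a5, a fructose transporter that microglia express in the nervous system, had a base mean of 98.03 and a level of 28.8, or 9.06% of the pair. Slc2a1, the glucose transporter of the blood-tissue barrier and astrocytes, is not among the 43 genes and had a level of 1147, which was 3.97 times that of Slc2a3.

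In the preparatory phase of glycolysis, glucose is phosphorylated and split into triose phosphates, and 9 genes were followed. Hexokinase, which traps glucose in the cell, was almost wholly Hk1 (chromosome 10, 62268855 to 62379908). Hk1 had a base mean of 7567 and a level of 887 per kilobase, and Hk2, the form of muscle and fat, had 137 and 22.9, so that Hk1 was 38.7 times higher. Gpi1, the isomerase of the next step, had a level of 1712.

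Phosphofructokinase, the committed step, was led by Pfkm, named for muscle (chromosome 15, 98092589 to 98132451). Its level of 3569 per kilobase made up 79.3% of the 3 genes. Pfkp, the platelet form, had a level of 515 and Pfkl, the liver form, of 415. The share of Pfkm depended on the length used, since Pfkp has 13401 bases of merged exons and Pfkm 3340, and without division by length Pfkm held 55.2%.

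The aldolases were the most abundant step. Aldoc, the brain form and a common marker of astrocytes (chromosome 11, 78322968 to 78327781), had a base mean of 42406 and a level of 12996 per kilobase. Aldoa, the general form (chromosome 7, 126795234 to 126800751), had 29335 and 10077. Aldoc held 56.3% of the pair, and this order turned with the length, since Aldoc held 44.6% when each gene was divided by its longest transcript. Tpi1, which interconverts the triose phosphates, had a level of 3994.

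The 3 PFKFB enzymes make and remove the sugar phosphate that activates phosphofructokinase. Pfkfb3 had a level of 353 per kilobase, Pfkfb2 of 245 and Pfkfb4 of 110, and Pfkfb3 held 49.8% of the family. None of the 3 was among the top 10% of genes ranked.

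The payoff phase of glycolysis makes ATP and pyruvate, and its 6 genes were all among the top 10% of genes ranked. Pkm, the pyruvate kinase of muscle and brain (chromosome 9, 59656368 to 59679375), had a base mean of 38525 and a level of 7703 per kilobase. Eno2, the enolase of neurons, had a level of 5173 and Eno1, the general form, of 2522, and Eno2 held 67.2% of the pair. Pgk1 had a level of 3655 and Pgam1 of 2212.

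Gapdh, often taken as a reference gene (chromosome 6, 125161715 to 125166467), had a base mean of 3461 and a level of 837 per kilobase. That was the lowest of the 6, in place 19 of the 43 genes and 12.04 times lower than the level of Aldoa. The level of Gapdh over all its windows was 2948 per 1000 windows, in place 12. Its whole base mean divided by only the 167 windows without an identical copy gave 20722, in place 1. That value would hold as a level only if no read from the copied windows was counted, which was not tested. Adding the 6 Gapdh pseudogenes of the table with windows within 2 mismatches, whose base means summed to 348, raised the level of Gapdh from 837 to 922 per kilobase. How many reads of Gapdh were set aside as mapping to several places was not tested.

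The same division moved other genes of this phase. With whole base means divided by windows without an identical copy, Eno1 stood at 17173 per 1000 windows against 9028 for Eno2. On that scale Eno1 was 1.90 times higher and the order of the enolases turned. Pgk1 moved from 4752 per 1000 windows to 14414 and Pgam1 from 2616 to 4342. For Aldoc and Aldoa, which had no identical copies, the values over both kinds of windows were the same, 15782 and 20231.

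**Figure D2:**
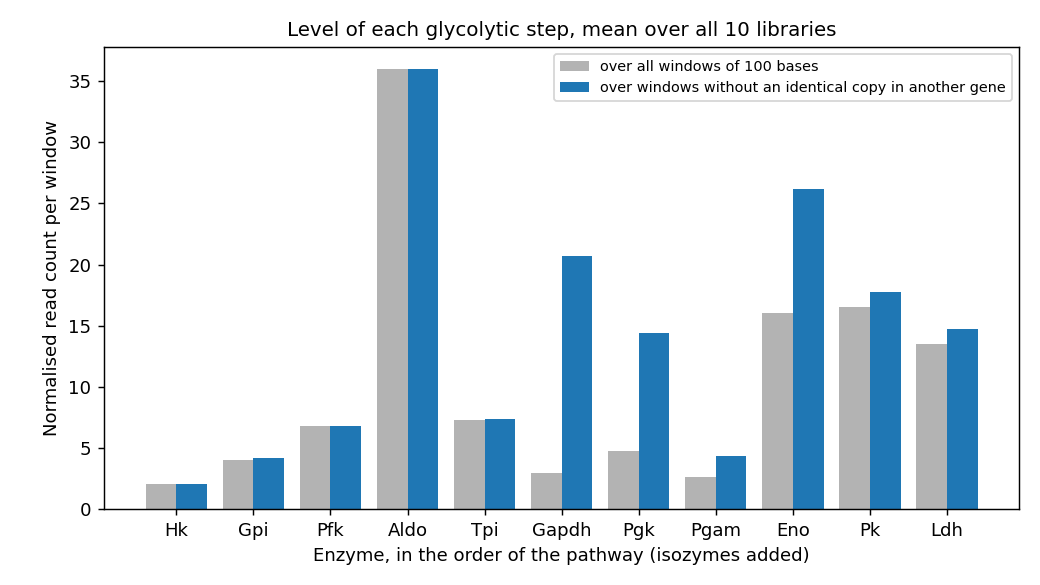
Normalised read count per window of 100 bases of the transcript (vertical axis, isozymes added) for each enzyme of glycolysis and for lactate dehydrogenase (horizontal axis), as the authors' mean over 10 libraries divided by all windows (grey) or by windows without an identical copy in another gene (blue). Aldolase was highest on both scales, and the gap between the bars was widest for Gapdh, 2948 against 20722 per 1000 windows.

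Lactate dehydrogenase interconverts pyruvate and lactate. Ldhb, the heart form (chromosome 6, 142490249 to 142507957), had a base mean of 14723 and a level of 9378 per kilobase. Ldha, the muscle form (chromosome 7, 46841475 to 46855627), had 2206 and 666, so that Ldhb held 93.4% of the pair and was 14.1 times higher. With whole base means divided by windows without an identical copy, Ldhb was still 10.3 times higher.

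The monocarboxylate transporters were led by Slc16a1, the MCT1 protein of oligodendrocytes and endothelium, with a level of 462 per kilobase and 91.7% of the 3 genes. Slc16a7, the high-affinity MCT2 of neurons, had a level of 30.7 and Slc16a3, the MCT4 of astrocytes and muscle, the lowest of the 43 genes at 11.3. Bsg, which encodes basigin, the chaperone of MCT1 and MCT4, had a level of 4835, in place 6 of the 43.

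Pyruvate enters mitochondria through a carrier of Mpc1 and Mpc2, with levels of 755 and 157 per kilobase. Mpc2 has 7344 bases of merged exons and a coding sequence of 381 bases, and per 1000 windows without an identical copy it stood at 1247 against 2245 for Mpc1. Of the pyruvate dehydrogenase complex, which turns pyruvate into acetyl-CoA, Pdha1 had a level of 1521, Pdhb of 684 and Dlat of 530. The kinases that switch the complex off were led by Pdk2 at 977, or 65.0% of the 4 genes. Pdk3 had a level of 266, Pdk4, which fasting induces in many tissues, of 133, and Pdk1 of 126.

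Of the glycogen genes, Pygb, the brain phosphorylase, had a level of 2250 per kilobase and Pygm, the muscle form that astrocytes also make, had 1183. Pygb held 65.5% of the pair. The base mean of Pygm was 3807, and the highest of the 4 skeletal muscle markers, Acta1, had 251. Which cells the RNA of Pygm came from was not tested. Gys1, the glycogen synthase, had a level of 160 and the branching enzyme gene Gbe1 of 79.8, so that both genes of glycogen synthesis were below both phosphorylases.

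The pentose phosphate pathway supplies NADPH and ribose. Its oxidative enzymes G6pdx and Pgd had levels of 516 and 157 per kilobase. The enzymes of its other branch, Taldo1 and Tkt, had 1241 and 697. The 4 genes lay between percentiles 58.4 and 95.5 of the genes ranked.

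**Figure D3:**
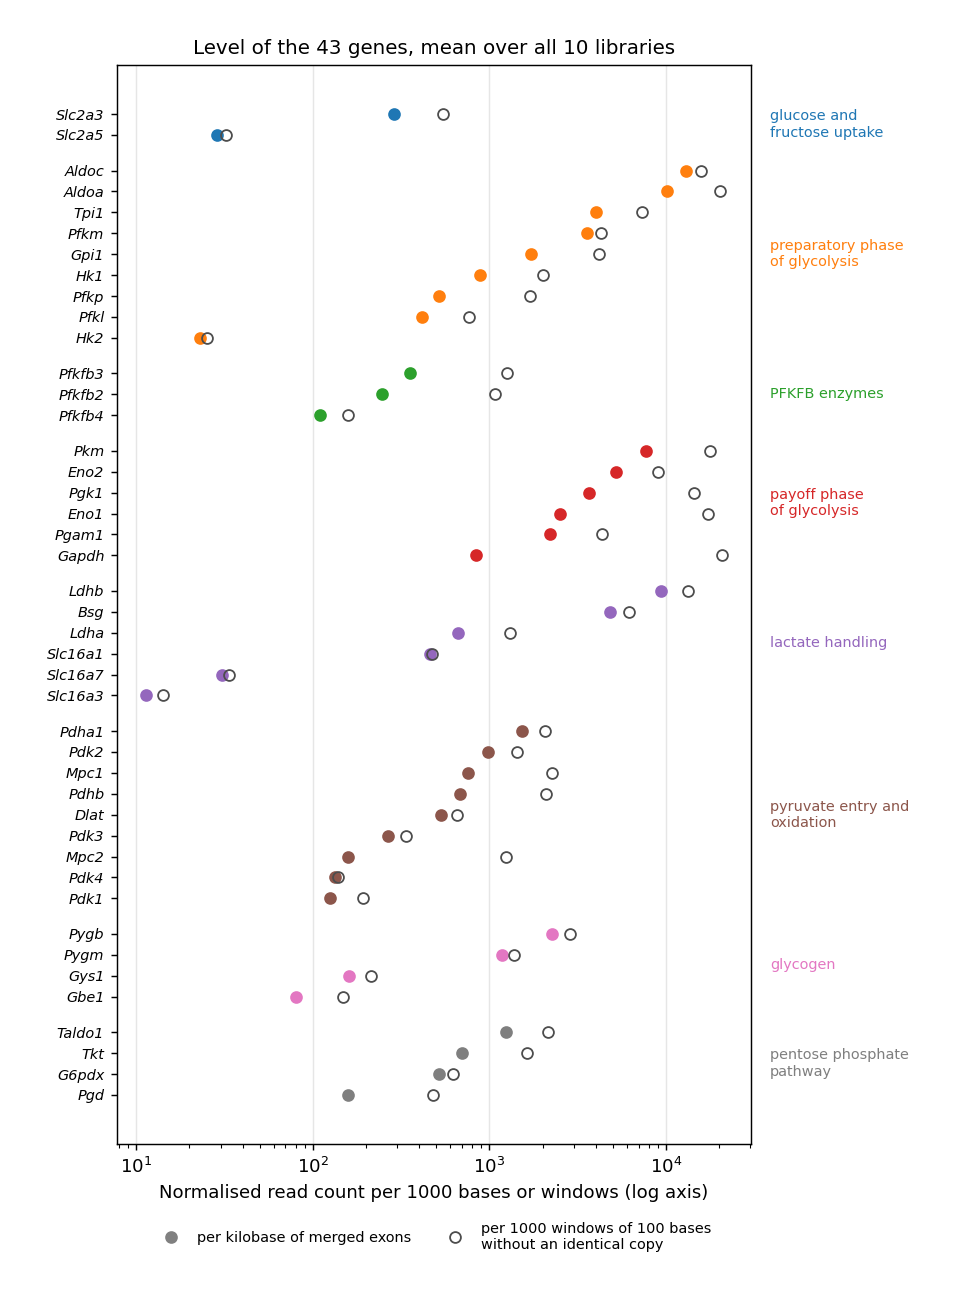
Level of each of the 43 genes by role (vertical axis), as normalised read count on a log axis (horizontal axis), from the authors' mean over 10 libraries. Filled points are per kilobase of merged exons and span 11.3 to 12996. Open points are the whole base mean per 1000 windows without an identical copy, where Gapdh had the highest value, 20722.

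**Figure D4:**
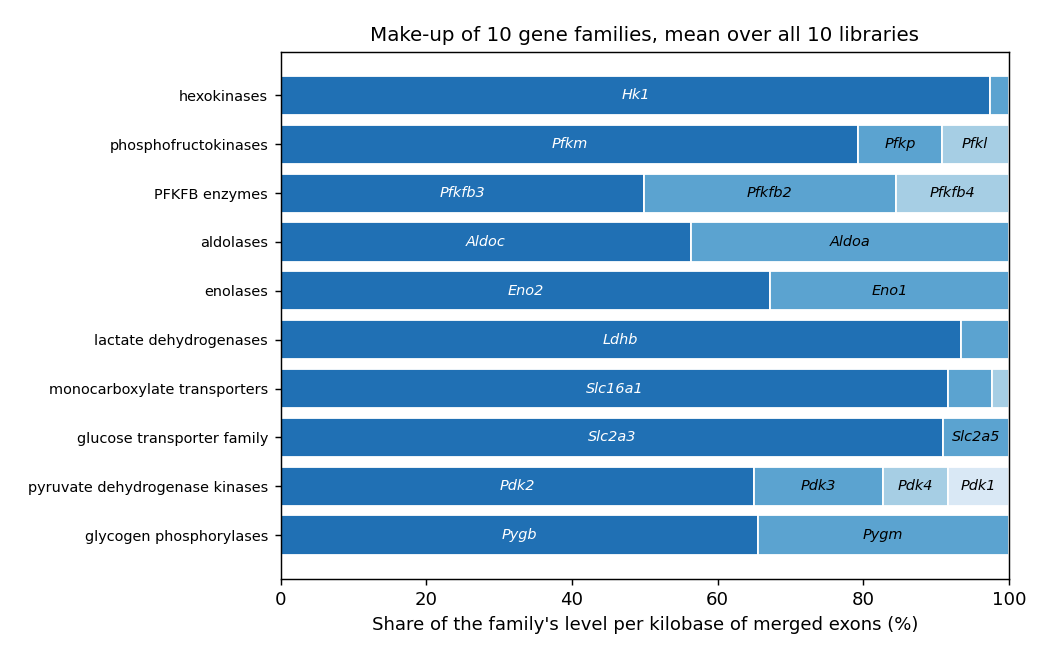
Share of each gene in the summed level per kilobase of merged exons of its family (horizontal axis, %) for 10 families (vertical axis), with shares under 7% not named. Hk1, Ldhb, Slc16a1 and Slc2a3 each held over 90% of their family, and the aldolases were the pair closest to even, with Aldoc at 56.3%.

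A list of 37 other genes of the same pathways held the paralogs best known from other tissues. A row was found for 36 of them, 29 of which had a base mean of at least 10, and their median lay at percentile 41.8 of the genes ranked. The testis forms Ldhc, Pgk2 and Pdha2 were listed at 0. Forms best known from liver were low, with base means of 11.7 for Pklr, 3.51 for Slc2a2 and 2.15 for Gys2. Of the muscle forms, Eno3 had a base mean of 195 and Pgam2 of 53.9, and the genes of fructose bisphosphatase, Fbp1 and Fbp2, had 2.22 and 1.72. Besides Slc2a1, the highest levels per kilobase were those of Dld, the third component of the pyruvate dehydrogenase complex, at 837, and of the glycogen genes Pgm1 and Ugp2 at 822 and 722.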

How the data were processed

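The 10 libraries of mouse spinal cord, 5 WT and 5 SOD1 G93A by the sample labels, were made with a stranded mRNA kit and sequenced as paired reads. According to the methods and the submitters' processing notes, the authors filtered reads with Fastp, aligned them to mm10 with HISAT2 2.1.0, took gene counts from uniquely mapped reads with featureCounts 2.0.2 and compared the genotypes with DESeq2. The gene annotation and strand setting are not given in the sources used here. The deposited table gives the base mean, a signal that the authors computed as the mean over all libraries of counts divided by size factors. Its other 5 columns hold the authors' own comparison of the genotypes (log2 fold change, standard error, Wald statistic and p-values) and were not used. No test was therefore made between genotypes, and the depth of each library is unknown here.

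Symbols were matched to GENCODE M21, an annotation of GRCm38 (the assembly of mm10), for 24355 of the 25232 genes, which hold 98.9% of the base means, and for all 43 members. A symbol with several entries, such as Aldoa with 2, took the entry with the longest coding sequence. Base means were divided by kilobases of merged exons, and only genes that reached a base mean of 10 were ranked. Windows of 100 bases were compared without gaps on both strands with transcripts of genes that do not overlap the member. Unannotated copies, fragment length and the second read of a pair were not modelled. The functions were tested on simulated data. The members and lists were chosen with earlier results of these data known. All members were named by rule. Other genes named from the fixed lists were picked after their values were seen. Python 3.11.15, numpy 2.4.6, pandas 2.3.3, scipy 1.17.1 and matplotlib 3.10.9 were used. Some genes of the fixed lists and 1 sequence are not reported here.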

Additional observations from a re-analysis of the deposited data

How the results depend on the processing

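The gene with the largest share was the same in 8 of the 10 families under every length tried, and the aldolases and enolases were the exceptions. Divided by the longest transcript, Aldoc held 44.6% of the aldolases, Hk1 98.6%, Pfkm 72.9%, Eno2 56.5%, Ldhb 90.3%, Pdk2 68.1% and Pygb 67.6% of their families. Divided by the longest coding length, the shares were 98.2% for Hk1, 55.3% for Pfkm, 52.6% for Pfkfb3, 62.5% for Aldoc, 64.2% for Eno2, 87.8% for Ldhb, 82.5% for Slc16a1, 95.6% for Slc2a3, 60.1% for Pdk2 and 73.9% for Pygb. Without division by length they were 98.2% for Hk1, 55.2% for Pfkm, 53.6% for Pfkfb3, 59.1% for Aldoc, 64.2% for Eno2, 87.0% for Ldhb, 82.9% for Slc16a1, 95.5% for Slc2a3, 59.2% for Pdk2 and 74.0% for Pygb. Over windows without an identical copy, chosen after the data were seen, they were 98.8% for Hk1, 63.4% for Pfkm, 43.8% for Aldoc, 34.5% for Eno2, 91.1% for Ldhb, 94.4% for Slc2a3, 68.3% for Pdk2 and 67.4% for Pygb. These changes come from the length each setting divides by. The median percentile of the 43 genes was 92.7 without the filter on low values, 92.4 with the longest transcript, 89.4 with the longest coding length and 87.9 without division by length.

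Adding pseudogenes by their annotated parents was not run, because the annotation used names no parents. Adding those that share a window, chosen after the data were seen, says nothing about the 10 families, because only Gapdh, which is in none of them, had such pseudogenes in the table. Copies annotated as protein-coding were not added. Among them was Eno1b, with a base mean of 56.7, which held identical copies of 1129 windows of Eno1. No paired analysis was possible because the values used are means over all libraries, and for the same reason leaving out a replicate was not run. The depth limits Slc16a3 most, with a base mean of 60.2.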
